A study of Homo sapiens with 8 samples.

Results

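Kyse510 cells, an established human line of esophageal squamous cell carcinoma (ESCC), were compared after treatment with SP2509, an inhibitor of the histone demethylase LSD1, and with UNC0642, an inhibitor of the histone methyltransferase G9a. The library of cells given 7 µM SP2509 for 2 days was set directly against that of cells given 7 µM UNC0642 for 2 days, without passing through the vehicle library that both share as a control. Genes were taken where at least 1 of these 2 libraries reached 1 FPKM (fragments per kilobase of gene, scaled to the size of the library), which kept 13269 of the 31582 genes listed. Of these, 10673 reached 1 FPKM in both libraries, 895 with SP2509 alone and 1701 with UNC0642 alone. The series holds 8 libraries with 1 per condition. Beside the pair, the inhibitor arm has cells given vehicle and cells given both inhibitors for 2 days, the latter labelled without a dose of its own. The genetic arm has Kyse510 cells with an inducible shLSD1 or shG9a hairpin, selected with puromycin for 14 days and left without doxycycline or given it for 2 days. No condition has a second culture, so no difference below has a replicate check and no p-value is given.

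LSD1 removes methyl groups from lysine 4 of histone H3 and works within repressor complexes that hold CoREST and histone deacetylases. G9a adds methyl groups to lysine 9 of histone H3, a mark of silenced euchromatin. Both enzymes are studied as repressors of lineage and stress genes in carcinomas. Kyse510 derives from squamous epithelium, a tissue built on keratins, desmosomes and hemidesmosomes and able to switch on wound, differentiation and defence programmes. Libraries of whole cultures were read, so fewer cells of a type and less RNA per cell cannot be told apart. Where 4 values follow each other they are in the order vehicle, SP2509, UNC0642 and both inhibitors. The comparison asks which genes and programmes set the inhibitors apart at one dose and one time.

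The libraries held 17804295 reads with SP2509 and 17889466 with UNC0642, as estimated from the FPKM steps, so depth was nearly equal. Mitochondrial genes took 6.51% of the reads with SP2509 and 6.17% with UNC0642, and the 20 highest genes took 12.8% and 10.3%. Squamous epithelial markers were present, with 10 of 10 markers at 1 FPKM or more in either library and a summed level of 5301 FPKM with SP2509, 1930 with UNC0642 and 1326 with vehicle. KRT17 made up most of that sum with SP2509, while EPCAM (132 and 184 FPKM), SFN (312 and 412 FPKM) and KRT6A were higher with UNC0642 and KRT14 was level. Leukocyte markers were near 0, with 0 of 4 listed markers at 1 FPKM and summed levels of 0.0365 and 0.339 FPKM. Of 6 fibroblast markers listed, 2 reached 1 FPKM (summed levels 6.96 and 3.23 FPKM), and of 4 endothelial markers 1 did, CDH5 with at most 4.43 FPKM.

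A gene was counted as higher with one inhibitor when (FPKM + 1) in its library was at least 1.3-fold that of the other, the fold that the study used. By that rule 2565 genes (19.3%) were higher with SP2509 and 5107 (38.5%) were higher with UNC0642, 57.8% in all. At 2-fold the numbers were 812 (6.12%) and 1545 (11.6%). The median log2 ratio of SP2509 over UNC0642 was -0.19 over all 13269 genes and -0.10 over the 5848 genes that reached 5 FPKM in each of the pair. Once the ratios were centred on that second median, 3094 genes were higher with SP2509 and 4325 with UNC0642, so the split of calls moves with the scaling. Counting error alone left most calls standing, since 2186 and 4803 genes also had an exact 95% interval of their read ratio that left out 1. Such intervals cover counting error only. Just inside the 1.3-fold threshold lay FCGRT (3.54 FPKM with SP2509 and 2.49 with UNC0642) and LRG1 (2.53 and 3.59 FPKM), and just outside lay DSCR3 (6.75 and 4.96 FPKM) and PDCL3 (10.7 and 14.3 FPKM).

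**Figure D1:**
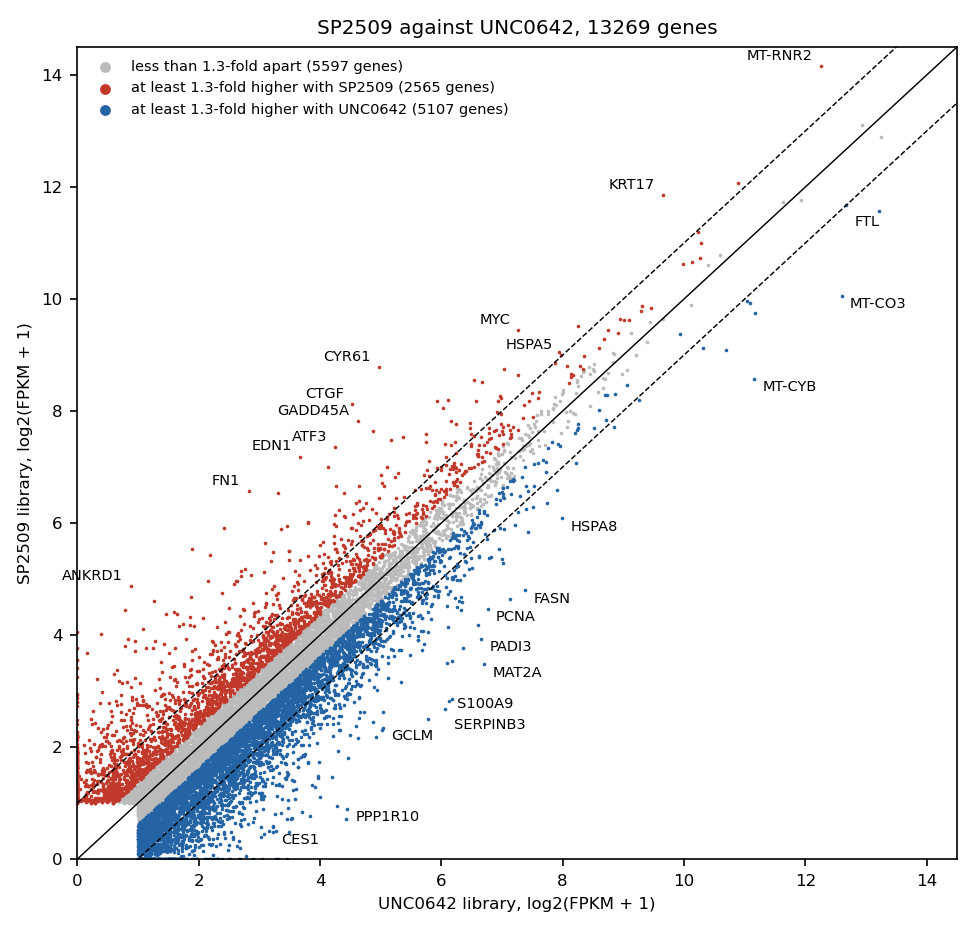
Each point is 1 of 13269 genes, placed by log2(FPKM + 1) in the UNC0642 library (horizontal) and the SP2509 library (vertical), 1 library each, with equality as a solid line and 2-fold differences as dashed lines. Red genes (2565) were at least 1.3-fold higher with SP2509, blue genes (5107) at least 1.3-fold higher with UNC0642, and ANKRD1 and PPP1R10 lie far from the line on either side.

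The largest ratios toward SP2509 belonged to genes of the YAP and TEAD response, secreted matrix proteins and stress genes. ANKRD1, a nuclear ankyrin-repeat protein switched on by YAP, had 1.61 FPKM in the vehicle library, 28.2 after SP2509, 0.847 after UNC0642 and 10.3 after both. It was 33.3-fold higher with SP2509 than with UNC0642 in FPKM (95% interval 23.2 to 49.6, counting error only), a log2 ratio of 3.98 with the pseudocount. CYR61, a secreted matricellular protein, had 8.89 FPKM in the vehicle library, 439 after SP2509, 30.5 after UNC0642 and 105 after both. Its close relative CTGF had 5.90, 277, 22.1 and 48.6 FPKM in the same order. In all 3 genes the SP2509 library was the highest of the 4, and the library with both inhibitors came next.

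The promoters of ANKRD1 and CTGF are shown because these genes are among the leaders of this group and carry TEAD motifs (GGAATG, in capitals). The sequences are the 250 bases before the RefSeq start in GRCh38.p14, 5′ to 3′ along the gene.
ANKRD1, chr10:90921088-90921337, minus strand: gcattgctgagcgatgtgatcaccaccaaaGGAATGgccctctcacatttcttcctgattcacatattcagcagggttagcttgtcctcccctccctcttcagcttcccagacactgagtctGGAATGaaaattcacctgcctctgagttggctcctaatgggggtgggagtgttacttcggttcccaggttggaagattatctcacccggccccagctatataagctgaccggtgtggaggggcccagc
CTGF, chr6:131951373-131951622, minus strand: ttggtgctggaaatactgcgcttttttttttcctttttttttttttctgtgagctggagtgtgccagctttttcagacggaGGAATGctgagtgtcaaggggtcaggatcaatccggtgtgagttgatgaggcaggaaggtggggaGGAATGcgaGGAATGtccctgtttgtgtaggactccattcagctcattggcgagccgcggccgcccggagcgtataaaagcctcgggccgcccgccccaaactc
The ANKRD1 promoter held 2 such motifs, 220 and 128 bases before the start, and the CTGF promoter held 3, at 169, 104 and 95 bases. Windows from 250 bases before to 50 after the start were searched on both strands. GGAATG was found in 5 of the 10 members of the YAP and TEAD target list with a matched promoter. These were ANKRD1, CTGF, LATS2, NUAK2 and YAP1, the last being the gene of YAP itself. CYR61, between ANKRD1 and CTGF in ratio, was not among them, and whether its promoter was matched is not given here. The motif was in 10.6% of the 8751 protein-coding genes matched and in 14.0% of all 27305 RefSeq promoters. Among matched genes at least 2-fold higher with SP2509 the share was 14.1% (37 of 263), and among those 2-fold higher with UNC0642 it was 8.12% (61 of 751). The AP-1 motif TGANTCA was in 8.37% and 3.99% of these 2 groups, beside 4.46% of the 8751 and 7.76% of all RefSeq promoters. A match is a run of letters and not a bound site.

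YAP and TEAD targets as a list had all 15 members past the FPKM filter, of which 8 (53.3%) were higher with SP2509 and 2 with UNC0642, with a median log2 ratio of 0.44 beside -0.19 over all genes. NUAK2, a kinase of the AMPK family (31.5 FPKM with SP2509 and 9.44 with UNC0642), and AMOTL2, which binds YAP at junctions (63.2 and 23.8 FPKM), followed the 3 leaders. YAP1 itself ran the other way, at 45.7 FPKM with SP2509 and 64.4 with UNC0642, as did AJUBA, a junctional LIM protein (10.1 and 20.4 FPKM). The gene of the cofactor and the leading target genes thus lay on opposite sides.

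The rest of the 12 largest protein-coding ratios toward SP2509 covered several roles. FN1, which encodes fibronectin, had 3.33 FPKM in the vehicle library, 93.9 after SP2509, 6.07 after UNC0642 and 25.2 after both. EDN1, the precursor of the peptide endothelin-1, had 5.75, 144, 11.8 and 16.6 FPKM. CYP24A1, the enzyme that breaks down active vitamin D, had 3.99, 59.1, 4.32 and 1.69 FPKM, so its level with both inhibitors lay below that with vehicle. IL20, a keratinocyte cytokine, had 0.326, 42.2, 3.53 and 3.25 FPKM, and PTGER4, a prostaglandin E2 receptor, had 2.93, 91.6, 8.92 and 11.4 FPKM. In each of these 5 genes the SP2509 library was the highest, and in FPKM the library with both inhibitors lay closer to UNC0642 than to SP2509.

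GADD45A, a growth-arrest gene induced by DNA damage, had 30.4 FPKM in the vehicle library, 226 after SP2509, 23.7 after UNC0642 and 57.5 after both. ATF3, a stress-induced transcription factor, had 17.4, 162, 18.1 and 100 FPKM. TUFT1, a cytoplasmic protein first known from enamel, had 17.6, 127, 16.4 and 38.5 FPKM, and TGFB2, a TGF-beta ligand, had 5.79, 30.3, 3.45 and 2.10 FPKM. In these 4 genes UNC0642 lay close to vehicle or below it. The read ratios of the 12 genes had intervals whose lower ends lay between 7.26-fold and 23.2-fold.

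**Figure D2:**
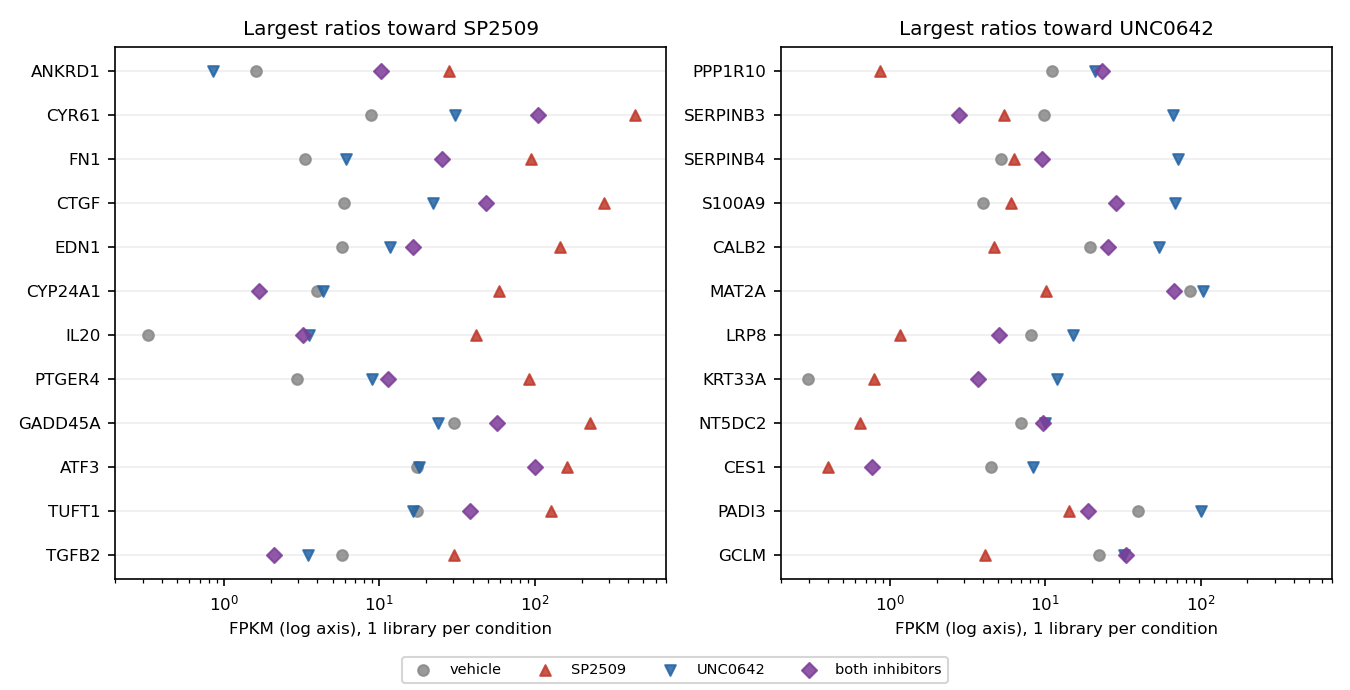
FPKM on a log axis in the vehicle, SP2509, UNC0642 and combined libraries (1 library each) for the 12 protein-coding genes with the largest ratio in each direction among those with at least 5 FPKM in the higher library. On the left the SP2509 library is the highest of the 4 for each gene, and on the right SP2509 is below UNC0642 for each gene by construction. On the right vehicle is nearer to UNC0642 on this axis for all genes but SERPINB3, SERPINB4, S100A9 and KRT33A.

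Immediate early and AP-1 genes, which cells switch on within minutes of a stimulus, leaned toward SP2509. Of 22 members 19 passed, 13 (68.4%) were higher with SP2509 and 1 with UNC0642, and 9 were at least 2-fold higher with SP2509, with a median log2 ratio of 0.74. FOSB had 13.4 FPKM with SP2509 and 1.68 with UNC0642, beside 0.632 with vehicle. MYC, the growth transcription factor, had 697 and 153 FPKM beside 137 with vehicle. JUNB (266 and 64.3 FPKM), the MAP kinase phosphatase DUSP1 (115 and 31.1 FPKM) and KLF6 (39.4 and 11.8 FPKM) completed the 5 largest. FOS was close in the pair (26.9 and 29.8 FPKM), and IER2 was the 1 member higher with UNC0642 (2.61 and 6.13 FPKM). Relative to the vehicle library that both share, the list's median log2 ratio was 2.15 with SP2509 and 0.77 with UNC0642.

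NF-kB cytokines and chemokines followed, with 18 of 22 members past the filter. Of these 9 (50%) were higher with SP2509 and 3 (16.7%) with UNC0642, beside 19.3% and 38.5% over all genes. The median log2 ratio was 0.51. IL6 had 11.8 FPKM with SP2509 and 1.84 with UNC0642, TNFAIP3, a feedback inhibitor of the pathway, 365 and 101 FPKM, and IL1B 224 and 70.5 FPKM. CXCL8 had 397 and 153 FPKM. The neighbouring chemokine gene CXCL1 ran the other way, at 24.3 FPKM with SP2509 and 74.2 with UNC0642, beside 88.9 with vehicle, and CXCL2 did too (1.35 and 4.62 FPKM). Members of one chemokine family thus lay on both sides.

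Keratins of stratified epithelium leaned toward SP2509, while 2 related lists did not. Of the epidermal differentiation complex 13 genes passed, 2 (15.4%) higher with SP2509 and 5 (38.5%) with UNC0642. Of 15 squamous lineage regulators 4 (26.7%) and 6 (40%) were, so both lists lay near the 19.3% and 38.5% of all genes. Of 16 keratins of stratified epithelium 13 passed, 8 were higher with SP2509 and 3 with UNC0642, with a median log2 ratio of 0.77. KRT17, a keratin of wounded epidermis, had 324 FPKM in the vehicle library, 3716 after SP2509, 806 after UNC0642 and 594 after both, and alone took 0.945% of all reads with SP2509 against 0.205% with UNC0642. KRT13 (49.2 and 7.52 FPKM with SP2509 and UNC0642), KRT80 (68.9 and 20.1 FPKM) and KRT5 (734 and 303 FPKM) also lay higher with SP2509. KRT6A (6.56 and 20.03 FPKM) and KRT6B (4.33 and 17.5 FPKM) were higher with UNC0642, and both share long stretches with other KRT6 copies, so the split of their reads is uncertain. KRT75 and KRT14 differed by less than 1.3-fold.

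Desmosome and adhesion genes had 13 of 16 members past the filter. Of these 8 (61.5%) were higher with SP2509 and 1 (7.69%) with UNC0642, beside 19.3% and 38.5% over all genes. The median log2 ratio was 0.74. The tight-junction gene CLDN1 had 82.7 FPKM with SP2509 and 23.9 with UNC0642, CDH3 (P-cadherin) 167 and 70.4 FPKM, CDH1 (E-cadherin) 122 and 53.2 FPKM, and the desmosomal cadherin DSG3 26.9 and 11.4 FPKM. CLDN4 was the 1 member higher with UNC0642 (21.7 and 29.9 FPKM). Hemidesmosome and basement membrane genes, all 16 past the filter, had 8 higher with SP2509 and 2 with UNC0642. COL17A1, the transmembrane collagen of hemidesmosomes, had 12.9 FPKM in the vehicle library, 92.3 after SP2509, 20.01 after UNC0642 and 32.9 after both, and DST and ITGB4 had 59.2 and 174 FPKM with SP2509 against 21.9 and 73.7 with UNC0642. The integrin gene ITGA3 ran the other way (35.3 and 87.2 FPKM).

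Genes tied to epithelial-mesenchymal transition stood beside these epithelial ones on the same side. Of 11 that passed among 15 named, 7 (63.6%) were higher with SP2509, beside 19.3% over all genes, and 0 with UNC0642. The median log2 ratio was 0.61. Beside FN1, SNAI2, a repressor of the Snail family, had 67.9 FPKM with SP2509 and 20.3 with UNC0642, TGFBI 306 and 124 FPKM, and SPARC 289 and 121 FPKM. SNAI1 and CDH2 (N-cadherin) differed by less than 1.3-fold. Of epithelial genes, CDH1 was also higher with SP2509, and EPCAM was higher with UNC0642.

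Interferon-stimulated genes and MHC class I genes leaned the same way with smaller ratios. Of 19 interferon-stimulated genes that passed among 28, 8 were higher with SP2509 and 1 with UNC0642 (median 0.32), led by the GTPase gene GBP1 with 6.18 FPKM in the vehicle library, 58.5 after SP2509, 9.31 after UNC0642 and 3.24 after both. GBP2 (5.04 and 0.748 FPKM) and IRF1 (7.51 and 2.72 FPKM) followed. All 14 class I presentation genes passed, 8 higher with SP2509 and 1 with UNC0642 (median 0.49), among them HLA-E (143 and 66.2 FPKM), HLA-B (46.1 and 26.3 FPKM) and B2M (192 and 129 FPKM). HLA genes are near-identical copies in part, so their reads may be shared. Of 33 cytosolic ribosomal protein genes 12 were higher with SP2509, 0 with UNC0642 and 21 in neither direction, with log2 ratios from -0.16 to 0.70.

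The largest ratios toward UNC0642 began with PPP1R10, a nuclear regulatory subunit of protein phosphatase 1, which had 11.1 FPKM in the vehicle library, 0.862 after SP2509, 20.8 after UNC0642 and 23.3 after both. It was 24.1-fold higher with UNC0642 than with SP2509 (95% interval 19.3 to 30.5, counting error only). SERPINB3 and SERPINB4, neighbouring serpin genes of squamous epithelium, had 9.81, 5.44, 66.0 and 2.80 FPKM and 5.20, 6.28, 71.4 and 9.48 FPKM. The pair is close in sequence, so the split of reads between them is uncertain. Of 9 SERPINB genes that passed, these 2 (22.2%) were higher with UNC0642 and 4 (44.4%) with SP2509. Among the 4 were SERPINB7 (20.3 FPKM with SP2509 and 10.6 with UNC0642) and SERPINB5 (34.6 and 25.6 FPKM). S100A9, a subunit of the calcium-binding protein calprotectin, had 3.98, 6.04, 68.6 and 28.3 FPKM. In these 3 epithelial genes UNC0642 was the highest of the 4 libraries, and both SP2509 and vehicle were below 10 FPKM.

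Of the other genes among the 12, 6 described next were lower with SP2509 than with vehicle and higher with UNC0642 than with vehicle. MAT2A, which makes the methyl donor S-adenosylmethionine, had 84.8 FPKM in the vehicle library, 10.1 after SP2509, 103 after UNC0642 and 67.1 after both. LRP8, a lipoprotein receptor, had 8.06, 1.16, 15.0 and 5.01 FPKM. NT5DC2, a protein of the 5′-nucleotidase domain family, had 7.02, 0.643, 10.02 and 9.63 FPKM. CES1, a carboxylesterase, had 4.50, 0.402, 8.36 and 0.766 FPKM. CALB2 (calretinin) had 19.3, 4.65, 54.0 and 25.2 FPKM and PADI3, an enzyme that converts arginine to citrulline in hair and epidermis, had 39.5, 14.3, 100.2 and 18.7 FPKM. KRT33A, a hair keratin, was low without UNC0642, at 0.298, 0.786, 11.99 and 3.68 FPKM, and had 18 reads with SP2509 against 276 with UNC0642.

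NRF2 targets, the genes of the antioxidant and NADPH-producing response, leaned most of the nuclear lists toward UNC0642. Of 21 named 20 passed, 17 (85%) were higher with UNC0642 and 0 with SP2509, beside 38.5% and 19.3% over all genes, and 13 were at least 2-fold apart, with a median log2 ratio of -1.09. GCLM, the modifier subunit of the enzyme that starts glutathione synthesis, had 22.2 FPKM in the vehicle library, 4.09 after SP2509, 32.0 after UNC0642 and 33.3 after both. AKR1B10, an aldo-keto reductase, had 70.9, 10.3, 67.6 and 21.9 FPKM. HMOX1, which degrades haem, had 4.09, 1.07, 10.1 and 29.2 FPKM, and SLC7A11, which imports cystine, had 48.9, 4.199, 23.0 and 10.47 FPKM. AKR1C2 had 205, 17.2, 96.5 and 32.7 FPKM, and reads of the AKR1C copies may be shared. Relative to the shared vehicle library the list's median was -1.29 with SP2509 and -0.17 with UNC0642. FTH1, TXNRD1 and TKT, also in the list, differed by less than 1.3-fold.

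The GCLM promoter is shown because GCLM has the largest ratio in the list and a match to the antioxidant response element (TGAC, 3 bases of any kind, then GCA, in capitals, here on the opposite strand), 35 bases before the start.
GCLM, chr1:93909431-93909680, minus strand: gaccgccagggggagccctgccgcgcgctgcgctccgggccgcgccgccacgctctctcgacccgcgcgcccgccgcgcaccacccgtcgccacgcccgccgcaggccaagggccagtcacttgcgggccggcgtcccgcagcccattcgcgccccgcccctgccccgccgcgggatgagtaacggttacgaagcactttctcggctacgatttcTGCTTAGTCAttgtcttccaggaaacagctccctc
Of 14 matched NRF2 targets 1, GCLM, held that motif in the window, beside 2.86% of the 8751 matched genes. The motif can overlap an AP-1 match.

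Cytosolic heat shock chaperones had 24 of 26 members past the filter, 15 higher with UNC0642 and 4 with SP2509, and a median log2 ratio of -0.75. HSPA8, the constitutive HSP70, had 99.4 FPKM in the vehicle library, 66.8 after SP2509, 253 after UNC0642 and 262 after both, and shares reads with processed pseudogenes. DNAJA1, its J-domain partner, had 37.3, 23.5, 77.1 and 160 FPKM. HSPA1A (7.35, 8.89, 24.9 and 50.9 FPKM) and HSPA1B (15.3, 16.6, 43.9 and 78.9 FPKM) are near-identical copies. HSF1, the transcription factor of the heat shock response, lay the other way at 17.6 FPKM with SP2509 and 10.98 with UNC0642, as did HSF2, DNAJB1 and HSPB1. The list's median against the shared vehicle was -0.23 with SP2509 and 0.37 with UNC0642.

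The HSPA8 promoter is shown because HSPA8 has the largest ratio among the chaperones and 2 matches to the heat shock element (GAA, TTC and GAA, each 2 bases of any kind apart, in capitals), 230 and 55 bases before the start, the second on the opposite strand.
HSPA8, chr11:123062137-123062386, minus strand: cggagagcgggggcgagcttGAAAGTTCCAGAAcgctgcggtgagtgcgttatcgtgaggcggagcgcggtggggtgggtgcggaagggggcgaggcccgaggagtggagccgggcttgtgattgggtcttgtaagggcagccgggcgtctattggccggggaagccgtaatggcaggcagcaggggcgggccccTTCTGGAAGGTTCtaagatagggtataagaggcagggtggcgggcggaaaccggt
Of 22 matched chaperone genes 4 held the element in the wider window (CHORDC1, DNAJA1, DNAJB6 and HSPA8), beside 0.263% of the 8751 matched genes and 0.487% of all RefSeq promoters. DNAJA1 and HSPA8 were higher with UNC0642, and DNAJB6 and CHORDC1 differed by less than 1.3-fold.

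Proteasome subunits leaned toward UNC0642. Of 31 named 30 passed, 22 (73.3%) were higher with UNC0642 and 0 with SP2509, and 8 in neither direction, with a median log2 ratio of -0.69 and a range from -1.87 to 0.01. PSMB2, a subunit of the core particle, had 44.3 FPKM in the vehicle library, 13.4 after SP2509, 51.4 after UNC0642 and 47.1 after both, and PSMD3, of the regulatory particle, had 34.6, 11.4, 43.96 and 57.2 FPKM. PSMD4 was the 1 member with a ratio above 0 and was level (79.2 and 78.6 FPKM). VCP, the segregase that hands substrates to the proteasome, had 65.0, 16.6, 68.2 and 85.7 FPKM. The immunoproteasome genes PSMB9 (15.8 FPKM with SP2509 and 8.26 with UNC0642) and PSMB10 (6.24 and 2.81 FPKM), counted with MHC class I presentation, lay on the opposite side from the constitutive subunits.

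Fatty acid genes were lower with SP2509 than with UNC0642. Of 11 fatty acid genes that passed, 7 were higher with UNC0642 and 0 with SP2509 (median log2 ratio -0.72). FASN, the fatty acid synthase, had 187 FPKM in the vehicle library, 26.9 after SP2509, 165 after UNC0642 and 45.0 after both, a 6.14-fold difference between the inhibitors (95% interval 5.95 to 6.34, counting error only). ELOVL6, an elongase, had 9.21, 1.63, 10.9 and 4.82 FPKM, ACACA, the acetyl-CoA carboxylase, 44.5, 8.38, 33.8 and 7.48 FPKM, and SREBF1, the transcription factor of the pathway, 51.4, 15.7, 35.8 and 13.6 FPKM. In all 4 genes both libraries with SP2509 lay below vehicle. Cholesterol genes were split, with 9 of 24 higher with UNC0642, close to the 38.5% of all genes, and 1 higher with SP2509. LSS, the lanosterol synthase, had 5.20 FPKM with SP2509 and 15.1 with UNC0642.

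Genes of DNA replication and G1/S entry lay on the UNC0642 side, and genes of mitosis did not. All 26 replication genes passed. Of these 17 (65.4%) were higher with UNC0642 and 2 (7.69%) with SP2509 (median -0.77), beside 38.5% and 19.3% over all genes. PCNA, the sliding clamp, had 60.2 FPKM in the vehicle library, 21.1 after SP2509, 108 after UNC0642 and 144 after both. CLSPN (1.47 and 7.30 FPKM), RRM2 (6.31 and 20.3 FPKM) and UHRF1 (5.33 and 16.1 FPKM) followed, while CDT1, which licenses origins, was higher with SP2509 (29.8 and 14.4 FPKM). Of 17 G1/S genes that passed among 22, 10 (58.8%) were higher with UNC0642 and 3 (17.6%) with SP2509 (median -0.65). CCNE1 had 0.308 and 3.46 FPKM, CCND1 72.3 and 153 FPKM and the inhibitor CDKN1A 53.02 and 38.01 FPKM. Of 23 mitosis genes 6 (26.1%) were higher with SP2509 and 2 (8.70%) with UNC0642 (median 0.11). The SP2509 share lay near the 19.3% of all genes. UBE2C (129 and 73.2 FPKM) and TTK (27.8 and 15.4 FPKM) were among the 6. The E2F motif TTTCGCGC was in 4 of 22 matched replication genes (MCM2, MCM3, MCM6 and MCM7), beside 1.02% of the 8751.

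Amino acid transporters and ribosome biogenesis genes leaned toward UNC0642, and aminoacyl-tRNA synthetases and lysosomal genes were near the 38.5% of all genes on that side. Of 15 amino acid transporters that passed among 17, 9 (60%) were higher with UNC0642 and 2 with SP2509, and of 20 aminoacyl-tRNA synthetases 9 (45%) and 0, with 11 in neither direction. SLC7A5, a large neutral amino acid carrier, had 539 FPKM in the vehicle library, 133 after SP2509, 296 after UNC0642 and 230 after both, and VARS, the valyl-tRNA synthetase, had 23.8, 9.31, 21.8 and 7.80 FPKM. Of 24 ribosome biogenesis genes 14 (58.3%) were higher with UNC0642 (median -0.40), led by NOP56 (12.4 and 35.1 FPKM), and 1, MYC, was higher with SP2509. Of 20 lysosomal genes that passed among 22, 8 (40%) were higher with UNC0642 and 0 with SP2509, led by the protease gene CTSL (27.0 FPKM in the vehicle library, 35.5 after SP2509, 89.7 after UNC0642 and 95.1 after both).

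Transcripts of the mitochondrial genome did not move as a unit. MT-RNR2, the large ribosomal RNA, had 8915 FPKM in the vehicle library, 18225 after SP2509, 4887 after UNC0642 and 11505 after both, and was 3.73-fold higher with SP2509 than with UNC0642. MT-RNR1, the small ribosomal RNA, had 1283, 1584, 1009 and 1931 FPKM. Of the 13 protein-coding genes 9 were higher with UNC0642 and 0 with SP2509, 8 of them by at least 2-fold, with a median log2 ratio of -1.15. MT-CYB, the cytochrome b of complex III, had 2931, 382, 2275 and 1665 FPKM, MT-CO3, of complex IV, 7669, 1062, 6202 and 3327 FPKM, and MT-CO2 9725, 3059, 9477 and 7506 FPKM. MT-ND4, MT-ND4L, MT-ATP6 and MT-CO1 differed by less than 1.3-fold, at log2 ratios of 0.17, 0.10, -0.17 and -0.35.

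The 2 mitochondrial ribosomal RNAs took 2.999% of reads with SP2509 and 0.860% with UNC0642, and the 13 protein-coding genes took 3.49% and 5.30%, so the near-equal mitochondrial total hid an exchange between them. The genes all lie on one circular genome with shared promoters, and MT-ND6 is the protein-coding gene of the light strand (560 and 1274 FPKM). How the libraries were selected from total RNA is not given in the sources used here, and the part of that selection in the ribosomal RNA values was not tested. Nuclear genes of the respiratory chain were closer, with 8 of 29 higher with UNC0642, 1 with SP2509 and a median log2 ratio of -0.17, beside -0.19 over all genes.

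**Figure D3:**
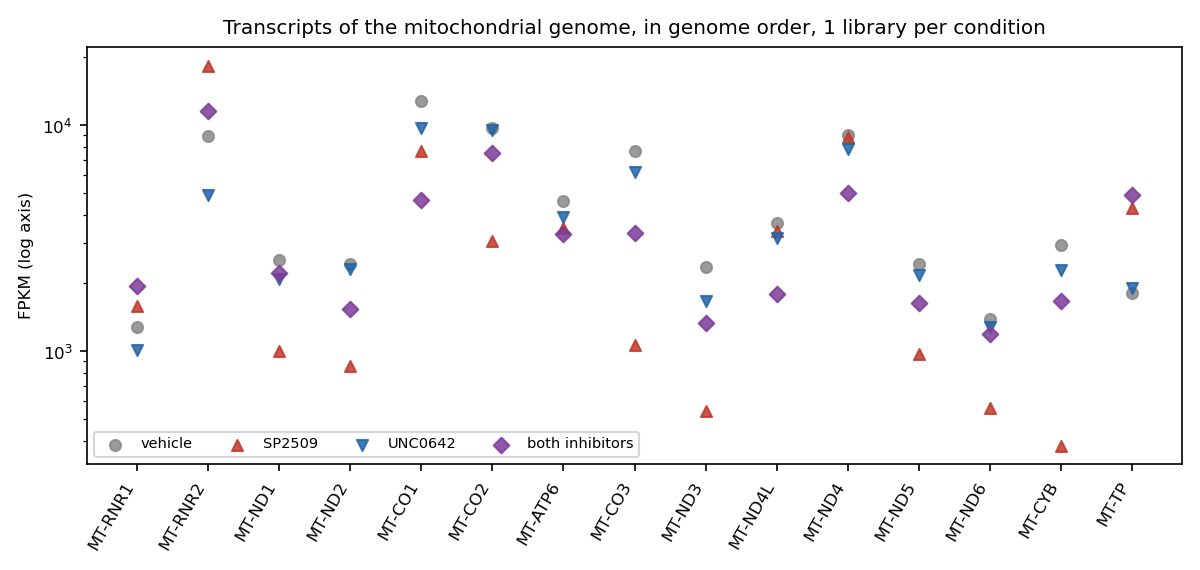
FPKM on a log axis of the mitochondrial transcripts listed with at least 100 FPKM with vehicle, in genome order, in the vehicle, SP2509, UNC0642 and combined libraries (1 library each). SP2509 is the highest library at MT-RNR2 (18225 FPKM) and the lowest at MT-CYB (382 FPKM) and MT-CO3 (1062 FPKM), while MT-ND4 differs little between vehicle, SP2509 and UNC0642.

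Genes of the endoplasmic reticulum response lay on both sides. HSPA5, the main chaperone of the compartment (BiP), had 1462 FPKM in the vehicle library, 511 after SP2509, 251 after UNC0642 and 627 after both, so both single inhibitors lay below vehicle and UNC0642 lay 2.04-fold below SP2509. Other chaperones ran the other way between the inhibitors. CRELD2 had 21.2, 1.71, 7.25 and 4.56 FPKM, HYOU1 56.1, 8.29, 21.4 and 21.8 FPKM, and SDF2L1 75.9, 4.65, 10.7 and 11.7 FPKM. Of 20 chaperones and foldases that passed among 21, HSPA5 was the 1 higher with SP2509 and 8 (40%) were higher with UNC0642, near the 38.5% over all genes, with a median of -0.25 beside -0.19. All 9 sensors and transcription factors of the unfolded protein response passed. Of these 2 (22.2%) were higher with SP2509, near the 19.3% of all genes, and 0 with UNC0642. The 2 were XBP1 (38.5 and 24.3 FPKM) and DNAJB9 (5.31 and 3.23 FPKM).

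The promoters of HSPA5 and CRELD2 are shown because both hold the ER stress response element (CCAAT, 9 bases of any kind, then CCACG, in capitals, on the opposite strand in CRELD2) while the genes lie on opposite sides of the comparison.
HSPA5, chr9:125241344-125241593, minus strand: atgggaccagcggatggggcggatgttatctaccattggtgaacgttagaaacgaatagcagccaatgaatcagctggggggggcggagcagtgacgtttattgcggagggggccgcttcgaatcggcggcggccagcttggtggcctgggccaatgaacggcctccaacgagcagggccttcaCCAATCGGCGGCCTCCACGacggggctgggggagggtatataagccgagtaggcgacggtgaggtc
CRELD2, chr22:49918384-49918633, plus strand: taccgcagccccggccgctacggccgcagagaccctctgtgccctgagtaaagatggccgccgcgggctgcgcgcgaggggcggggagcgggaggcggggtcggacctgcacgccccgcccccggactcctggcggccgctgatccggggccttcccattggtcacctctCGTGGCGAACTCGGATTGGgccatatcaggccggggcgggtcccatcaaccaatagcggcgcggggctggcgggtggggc
The element starts 66 bases before the start of HSPA5 and 80 bases before that of CRELD2. It was found in 6 of 19 matched chaperones (CALR, CANX, CRELD2, ERO1B, HSP90B1 and HSPA5), beside 12 of all 8751 matched genes (0.137%) and 0.0806% of all RefSeq promoters, and in 0 of 15 matched ERAD genes. The log2 ratios of these 6 genes ran from -1.61 for CRELD2 to 1.02 for HSPA5.

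ERAD genes, which send misfolded proteins to the cytosol, had 17 of 18 past the filter. Of these 9 (52.9%) were higher with UNC0642 and 1 (5.88%) with SP2509, beside 38.5% and 19.3% over all genes. VCP and EDEM3 (1.43 FPKM with SP2509 and 5.82 with UNC0642) led the former, and HERPUD1, the 1 higher with SP2509, had 121 FPKM in the vehicle library, 15.7 after SP2509, 7.82 after UNC0642 and 40.9 after both. ATF4 and CHOP targets were spread widest, with 25 of 28 past the filter and a median of -0.12. Of them 7 (28%) were higher with SP2509 and 11 (44%) with UNC0642, not far from the shares of all genes. On the SP2509 side stood ATF3, PPP1R15A, which restores translation after stress (77.1 FPKM in the vehicle library, 289 after SP2509, 59.7 after UNC0642 and 202 after both), and DDIT3, which encodes CHOP (70.6, 17.3, 5.70 and 22.6 FPKM). On the UNC0642 side stood PSAT1, of serine synthesis (327, 23.1, 80.1 and 217 FPKM), TRIB3 (85.4, 3.75, 13.8 and 22.0 FPKM) and SLC7A11. Except for ATF3 and PPP1R15A, these genes were below vehicle with either single inhibitor, and they differed in which inhibitor went lower.

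**Figure D4:**
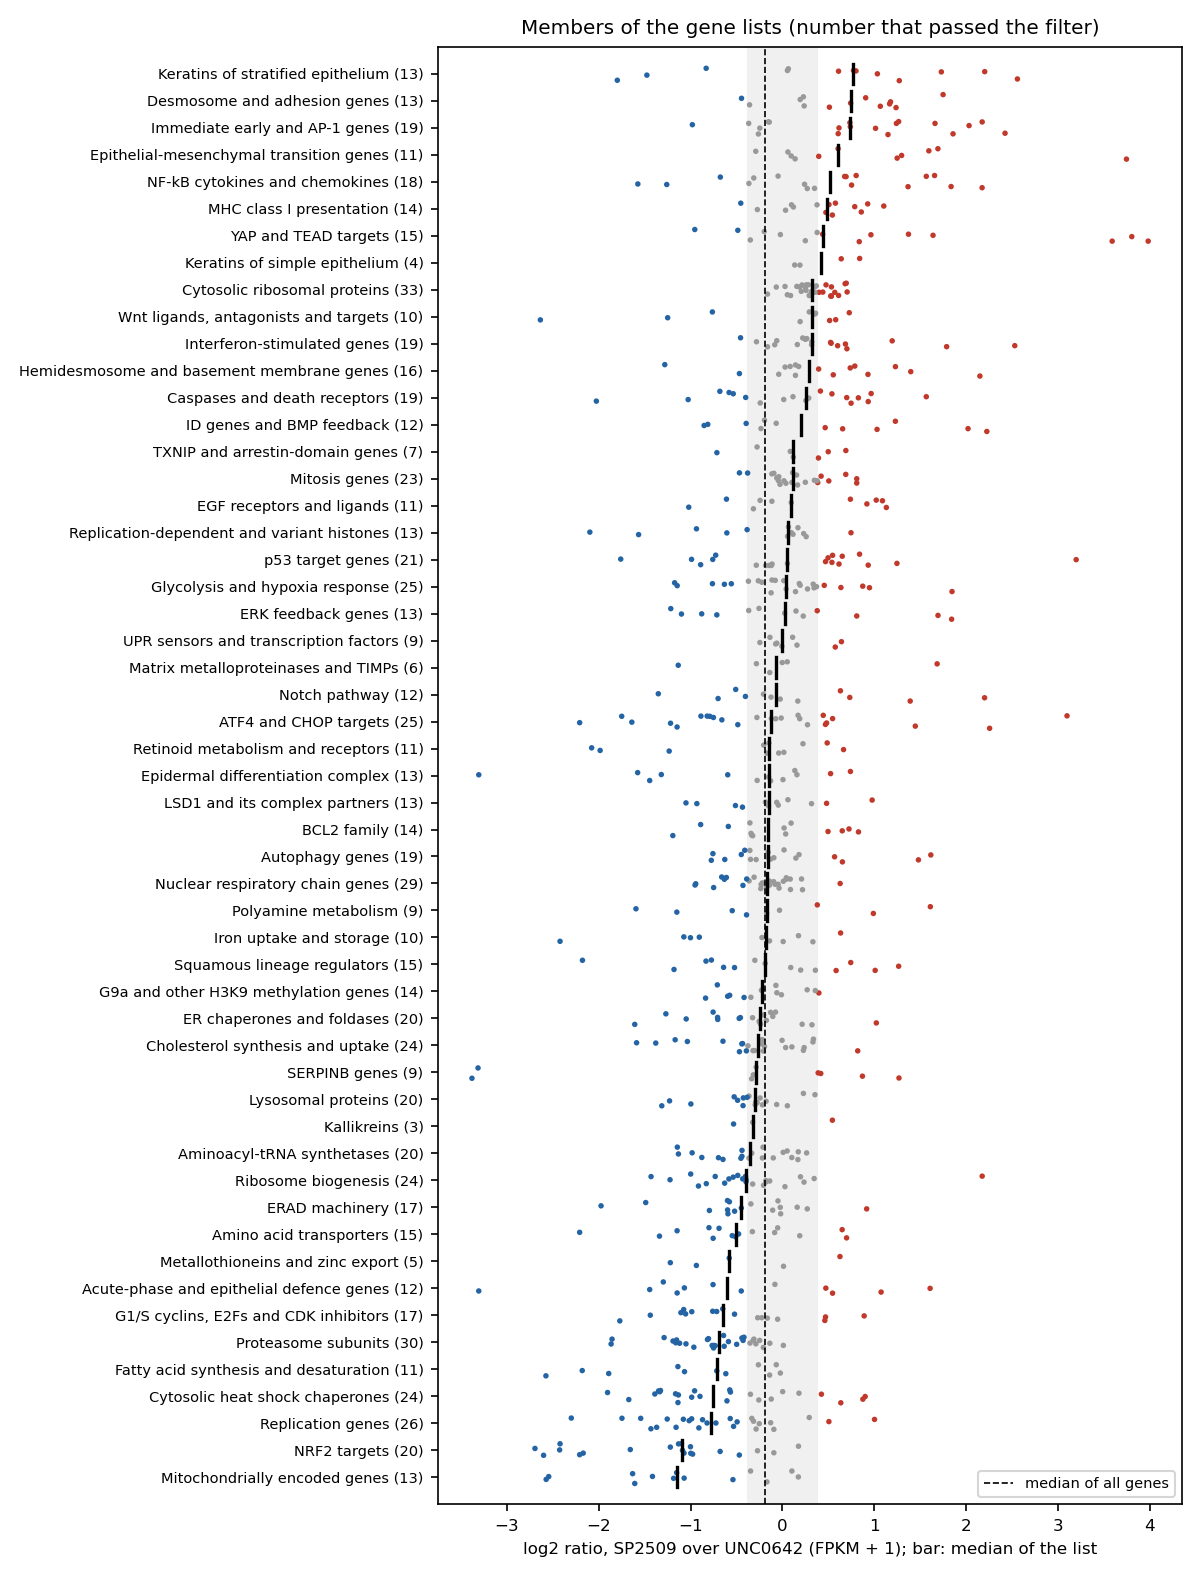
Log2 ratio of SP2509 over UNC0642 on the (FPKM + 1) scale for the members of each gene list that passed the filter (number in parentheses), sorted by the median of the list (black bar), with the median of all genes as a dashed line and the range within 1.3-fold shaded. Keratins, desmosome genes and immediate early genes lie at the SP2509 end (medians 0.77, 0.74 and 0.74), and NRF2 targets and mitochondrially encoded genes at the UNC0642 end (-1.09 and -1.15).

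Other lists held members on both sides. Of 19 caspase and death-receptor genes 8 (42.1%) were higher with SP2509, beside 19.3% over all genes, among them BIRC3 (34.5 and 10.98 FPKM) and TNFRSF10B, a TRAIL receptor (59.6 and 30.7 FPKM), and 6 with UNC0642, among them FADD, the adaptor of death receptors (17.3 FPKM in the vehicle library, 3.94 after SP2509, 19.1 after UNC0642 and 28.3 after both). Of 21 p53 targets that passed, 10 (47.6%) were higher with SP2509, GADD45A first, and 5 with UNC0642, TIGAR first (0.671 and 4.66 FPKM). JAG1, a Notch ligand, had 12.5 FPKM in the vehicle library, 63.1 after SP2509, 12.9 after UNC0642 and 10.2 after both. WNT5A, a Wnt ligand, had 29.3, 1.44, 14.1 and 2.76 FPKM, and SOX2, a squamous lineage factor, had 18.3, 0.313, 4.94 and 0.636 FPKM, which leaves UNC0642 between vehicle and the libraries with SP2509. Among the ID genes, targets of BMP signalling, ID3 was higher with SP2509 (376 and 91.8 FPKM) and ID1 with UNC0642 (207 and 364 FPKM). Glycolysis and hypoxia genes differed little as a list (5 higher with each inhibitor of 25, median 0.04), and stood above the shared vehicle in both (medians 1.05 and 0.83).

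The lists named after the enzymes themselves lay near the background. KDM1A, which encodes LSD1 (ENSG00000004487, chromosome 1 from 23019448 to 23083689, GRCh38), had 40.7 FPKM in the vehicle library, 36.2 after SP2509, 40.3 after UNC0642 and 32.0 after both. EHMT2, which encodes G9a (ENSG00000204371, chromosome 6 from 31879759 to 31897687), had 11.1, 10.2, 10.3 and 5.38 FPKM. The interval of the SP2509 over UNC0642 ratio was 0.858 to 0.940 for KDM1A and 0.919 to 1.07 for EHMT2, counting error only. Both compounds act on the proteins, so these values are no check of inhibition. Among partners, HDAC1 (28.4 and 59.96 FPKM) and HDAC2 (8.65 and 17.4 FPKM) were higher with UNC0642, and HMG20B, a CoREST subunit, was higher with SP2509 (33.6 and 16.6 FPKM).

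Gene types differed in the share that lay on each side. Among 10666 protein-coding genes 15.9% were higher with SP2509 and 37.2% with UNC0642, and of the 812 genes 2-fold higher with SP2509 only 342 were protein-coding, against 955 of the 1545 on the other side. Long noncoding classes leaned toward UNC0642, with 61.1% of 429 lincRNA genes and 50.8% of 492 antisense genes higher there. These 2 types held a median of 55 and 47 reads over both libraries. Over all types, 1701 genes passed the filter with UNC0642 alone and 895 with SP2509 alone. How far that filter sets the shares of such low types was not tested. Short RNA classes leaned toward SP2509, with 56.0% of 166 snRNA, 57.7% of 111 snoRNA and 57.7% of 130 misc RNA genes higher there. The miRNA genes did not follow them (37.8% of 148 higher with SP2509 and 54.1% with UNC0642). The 3 classes held a median of 3, 10 and 6 reads over both libraries, so single values among them are weak, and their part in the class shares was not tested. Processed pseudogenes, copies of spliced mRNAs, were also more often higher with SP2509 (40.1% of 546). Antisense values cannot be told from their partner genes where reads were counted without strand, which the sources used here do not state.

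**Figure D5:**
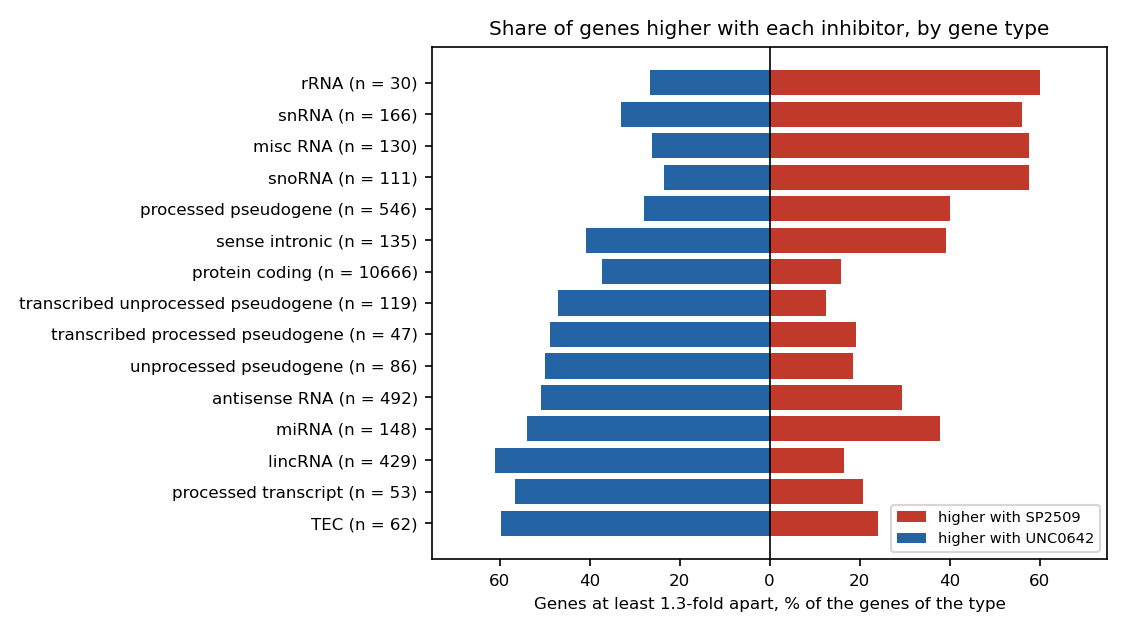
Bars give the percent of genes of each type with at least 30 genes past the filter that were at least 1.3-fold higher with SP2509 (red, to the right) or with UNC0642 (blue, to the left), 1 library each. Bars to the left are longest for lincRNA (61.1%) and those to the right for rRNA, snoRNA, misc RNA and snRNA (56.0% to 60%), while protein-coding genes have 37.2% to the left and 15.9% to the right.

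The largest noncoding ratios rested on few reads. MIR6819 had 17 reads with SP2509 and 0 with UNC0642, at least 5.69-fold higher against a floor of 3 reads, and RNU6-702P had 24 and 0, at least 8.04-fold higher. SNORD53B had 29 reads with SP2509 and 1 with UNC0642, a ratio whose counting interval ran from 4.83 to 1190.1. On the other side MIR3972 had 1 and 32 reads, MIR3189 0 and 13, at least 4.31-fold higher with UNC0642, and the pseudogene IGFL1P1 6 and 119. No mature miRNA was measured.

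Protein-coding genes of high level and of long span leaned less toward UNC0642. Of 314 genes with a mean above 100 FPKM 34.1% were higher with SP2509 and 19.4% with UNC0642, whereas of 4321 genes under 5 FPKM 12.9% and 42.8% were. In 5 groups of equal number by genomic span, from short to long, 14.7%, 10.1%, 8.53%, 6.47% and 5.02% were at least 2-fold higher with UNC0642. Past 2-fold, the genes of highest level toward SP2509 were MT-RNR2, MT-TP, KRT17, KRT5 and MYC. Toward UNC0642 they were MT-CO2, FTL (6826 FPKM in the vehicle library, 3259 after SP2509, 6524 after UNC0642 and 7047 after both), MT-CO3, MT-ND2 and MT-CYB. FTL encodes the ferritin light chain.

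The other inhibitor libraries were used to place the pair. Of the 812 genes 2-fold higher with SP2509, vehicle lay between the inhibitors for 59.9%, below both for 35.7% and above both for 4.43%. The library with both inhibitors lay between for 62.2%, below both for 30.9% and above both for 6.90%. Of the 1545 genes 2-fold higher with UNC0642, vehicle lay between for 60.5% and above both for 34.0%, and the combined library for 59.0% and 37.0%. Median levels in the first group were 5.22 FPKM with SP2509, 0.903 with UNC0642, 1.25 with vehicle and 1.27 with both, and in the second 1.22, 4.94, 4.43 and 4.53 FPKM. In both groups the median with both inhibitors lay closer to UNC0642 and vehicle than to SP2509. The groups were chosen on the pair. In the first the UNC0642 median lies under the filter of 1 FPKM, so many of its genes passed through the SP2509 library alone. The place of the other libraries there is thus partly set by the choice of genes, and no conclusion is drawn from it.

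The genetic arm shares no library with the pair and gives the counterpart contrast, induced shLSD1 over induced shG9a, in libraries from stable lines. Of the 11676 genes that could be compared there, 44.7% were higher with shLSD1 and 55.3% with shG9a. Among genes 1.3-fold higher with SP2509 the share higher with shLSD1 was 55.5% (1026 of 1850), and among those 2-fold higher it was 61.9% (245 of 396). Among genes higher with UNC0642 the share higher with shG9a was 58.4% (2679 of 4584) at 1.3-fold and 56.2% (729 of 1297) at 2-fold. The lines leaned the same way before induction, by less. Median log2 ratios of shLSD1 over shG9a for the SP2509 genes were 0.056 induced and 0.028 uninduced at 1.3-fold, and 0.196 and 0.035 at 2-fold. For the UNC0642 genes they were -0.084 and -0.031 at 1.3-fold, and -0.082 and -0.043 at 2-fold. Across the 11676 genes, which are not independent replicates, Pearson's r of the log2 ratios was 0.08 and Spearman's rho 0.10. The knockdown of each target was seen in its own line, where KDM1A had 25.98 FPKM without and 6.29 with doxycycline in shLSD1, and EHMT2 had 7.85 and 4.76 in shG9a.

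Single genes kept or lost their side in the knockdowns. CYP24A1 had 10.2 FPKM with induced shLSD1 and 0.0581 with induced shG9a, the same side as with the inhibitors. Its uninduced lines had 11.1 and 9.70 FPKM, so it was near level with shLSD1 and fell with shG9a. ATF3 had 14.1 and 3.66 FPKM and CTGF 3.32 and 0.741 FPKM, also on that side. Uninduced, ATF3 had 34.2 and 35.8 FPKM and CTGF 81.2 and 90.3 FPKM. Both genes thus fell with doxycycline in either line, whereas SP2509 lay above vehicle. No library had doxycycline without a targeting hairpin. In changes shared by both lines, effects of doxycycline and of the hairpins cannot be told apart. Of the lists, ATF4 and CHOP targets, which were near 0 in the pair, had a median of 1.47 in this contrast, and NRF2 targets, at -1.09 in the pair, had 0.51. Replication genes had medians of -0.77 and -0.52 and immediate early genes 0.74 and 0.51, on the same side in both contrasts. Against the uninduced lines, single members went the other way from SP2509 over vehicle. MYC, FOSB, JUNB, DUSP1 and KLF6, above vehicle with SP2509, fell with doxycycline in either line. MYC went from 219 to 105 FPKM with shLSD1 and from 206 to 67.2 with shG9a. PCNA, below vehicle with SP2509, rose with doxycycline in both lines (22.9 to 43.4 and 28.3 to 76.3 FPKM).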

How the data were processed

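Total RNA of Kyse510 cells was sequenced as paired-end reads in 8 libraries, 1 per condition, grouped by the sample labels, with doses from the description of the series. The authors discarded reads of low quality, aligned what was left (human build GRCh38) and deposited FPKM values in 2 tables, one per arm. The aligner, the counting tool and the use of strand are not given in the sources used here. Tables were not compared on level with each other.

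Log2 ratios of SP2509 over UNC0642 were computed on FPKM with a pseudocount of 1, which understates the change of low genes, for genes with at least 1 FPKM in either library. Library totals were estimated from genes with 1 exon, of which 98.2% to 98.5% in the pair fell on whole reads, and gene reads from the smallest length that makes the values of all libraries whole, which gave 99.8% of the totals. Several lengths can fit, so reads of single genes may be too low. Intervals are exact binomial (Clopper-Pearson) at 95% and folds against 0 reads use a floor of 3 reads, both for counting error only. With 1 library a side no test between conditions was run.

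Members, 54 gene lists and tests were chosen with earlier results of these data known. Of the lists, IGFL genes had 0 of 4 members past the filter. Named genes were the 12 protein-coding genes and 3 of other types with the largest ratio each way (at least 5 FPKM in the higher library), up to 5 list members each past 1.3-fold, the 5 highest past 2-fold each way, KDM1A and EHMT2. Further list members, mitochondrial genes and the promoters printed were chosen after their values were seen. Some list members are counted but not reported here by name. RefSeq promoters (GRCh38.p14, 250 bases before to 50 after the start, the first entry of a gene) were matched by symbol or synonym and position for 8751 of 10666 protein-coding genes. Motifs, all searched on both strands, were those spelled out with the results and CRE (TGACGTCA), the sterol element SRE, E-box (CACGTG), XRE (TTGCGTG) and CCAAT, which lies within the ER element. The scripts were tested on simulated data and used Python 3.11.15, pandas 2.3.3, NumPy 2.4.6, SciPy 1.17.1 and matplotlib 3.10.9.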

Additional observations from a re-analysis of the deposited data

Results flagged for a closer look

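Of the 24 protein-coding genes with the largest ratios between the inhibitors, 6 had a ratio of at least 2-fold in the opposite direction between the induced knockdowns, all among the 12 that were higher with UNC0642 than with SP2509. The difference between the contrasts was not tested, as each library is 1 sample. S100A9 had 302 FPKM with induced shLSD1 and 44.1 with induced shG9a, a log2 ratio of 2.75, against -3.31 for SP2509 over UNC0642, and its uninduced lines had 30.4 and 40.7 FPKM. SERPINB3 had 45.8 and 12.2 FPKM (log2 ratio 1.82) and SERPINB4 97.8 and 19.4 FPKM (2.27), with uninduced levels of 5.07 and 5.10, and 9.79 and 10.8 FPKM. In these 3 genes the induced shLSD1 library was the highest of the 4 in its arm, as UNC0642 was among the inhibitors.

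The other 3 genes had their lowest level of the arm with induced shG9a. CALB2 had 18.8 FPKM with induced shLSD1 and 1.80 with induced shG9a (log2 ratio 2.83), CES1 6.98 and 0.649 FPKM (2.28) and PADI3 72.0 and 28.1 FPKM (1.33). Their uninduced shG9a levels were 7.21, 7.23 and 77.0 FPKM, and their uninduced shLSD1 levels were 8.86, 3.05 and 104 FPKM. With doxycycline all 3 fell in the shG9a line. In the shLSD1 line CALB2 and CES1 rose and PADI3 fell. With UNC0642 all 3 were above vehicle, and with SP2509 below it.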

How the results depend on the processing

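No paired analysis was possible because each condition has 1 library. Counts of genes higher with SP2509 and with UNC0642 were 1463 and 2693 with at least 5 FPKM in either library and 812 and 1545 at a fold threshold of 2, and protein-coding genes alone gave 1693 with SP2509. The other settings gave 2186 to 3303 genes higher with SP2509 and 3967 to 6736 higher with UNC0642, within 1.5 times of the reported counts. SP2509 made up 33.4% of the calls as reported, 41.7% after centring and 42.5% with upper-quartile scaling. Of 53 list medians 34 lay above that of all genes, and 22 did without a filter on low values, where unfiltered genes pull the median of all genes toward 0. No list median past 1.3-fold and no named gene past it changed sign under the settings run. Sizes were less stable. For named genes 466 values left the counting interval of the gene and 865 stayed within it. For list medians 5 values left the spread of the list and 418 stayed. The share of called genes with the same direction in the knockdowns was 57.6%, 22.3% where a 1.3-fold ratio was required there, which is stricter by construction, and 54.5% with each induced library set over its own uninduced one. With 1 library a side, differences between cultures and effects of the inhibitors cannot be told apart, and low genes are limited by their reads.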

Other observations

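Single genes of polyamine, autophagy and retinoid metabolism differed between the inhibitors, with members of each list on both sides. SAT1, the enzyme that acetylates spermidine for export, had 73.3 FPKM in the vehicle library, 289 after SP2509, 93.9 after UNC0642 and 88.2 after both, whereas SRM, which makes spermidine, had 36.1, 11.3, 36.2 and 27.4 FPKM. Of 9 polyamine genes that passed, 3 (33.3%) were higher with SP2509 and 4 (44.4%) with UNC0642, beside 19.3% and 38.5% over all genes. Of 19 autophagy genes that passed, 4 (21.1%) were higher with SP2509, near the share of all genes. With UNC0642 5 (26.3%) were higher, under that of all genes, led by ATG9A (7.18, 5.21, 9.61 and 9.21 FPKM). GABARAPL1 (36.8, 70.2, 22.2 and 56.7 FPKM) and OPTN (6.74, 20.02, 6.53 and 10.6 FPKM) were at least 2-fold higher with SP2509. CYP26B1, which degrades retinoic acid, had 1.39, 2.14, 11.4 and 15.6 FPKM, and RDH10, which helps to make it, 4.73, 2.31, 13.0 and 26.2 FPKM, and both were higher with UNC0642. Of 11 retinoid genes that passed, 3 (27.3%) were higher with UNC0642, under the 38.5% of all genes, and 2 with SP2509, DHRS3 (48.8, 46.1, 28.7 and 11.5 FPKM) and STRA6 (11.4, 8.80, 5.99 and 8.07 FPKM).

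Among ERK feedback genes DUSP5 (12.04 FPKM in the vehicle library, 191 after SP2509, 52.6 after UNC0642 and 116 after both) and the receptor gene EPHA2 (24.6, 173, 52.7 and 144 FPKM) lay on the SP2509 side, and ETV4 (5.19, 5.64, 13.2 and 11.7 FPKM) and SPRED1 (2.95, 1.605, 5.05 and 6.02 FPKM) on the other. EGFR had 37.1, 70.3, 34.1 and 23.0 FPKM and ERBB3 7.94, 2.40, 5.89 and 7.999 FPKM, so receptors of one family differed in side. The histone variant gene H2AFX had 24.2, 5.19, 25.5 and 29.1 FPKM.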
